A study of Mus musculus with 12 samples.

Results

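The comparison of 3-month-old adipocytes labelled Crtc2 AKO with those of floxed controls covers 6 of the 12 libraries of the series, 3 per group, and was read across genes. Members were the libraries whose labels give an age of 3 months, and their estimated read counts were summed per gene symbol. Each library was made from polyadenylated RNA, and the cells were primary adipocytes of epididymal fat of C57BL/6N mice. The control group (called WT here, as in the labels) carried Crtc2 f/f, the floxed gene without a knockout, and the AKO group is labelled as an adipocyte-specific knockout of Crtc2. The promoter that drove the knockout is not given in the sources used here, nor how the adipocytes were separated from other cells. Whether libraries stand for different mice is not in the labels, so p-values measure only the spread between these libraries, which may be technical. The 18-month libraries of both genotypes entered the same fit, where they add to the estimate of the spread, and are otherwise given only beside the young values.

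Crtc2 works with CREB, a transcription factor that occupies cyclic AMP response elements in target promoters, and raises its activity. In adipocytes cyclic AMP rises when catecholamines act on beta-adrenergic receptors in fasting or cold, which starts lipolysis through protein kinase A. Phosphorylation by salt-inducible kinases holds CRTC proteins in the cytoplasm, and they enter the nucleus when those kinases are inhibited by cyclic AMP signalling. Epididymal fat also holds endothelial cells, progenitors, mesothelium and macrophages, whose RNA can accompany isolated adipocytes.

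Depth ran from 50800576 to 60470083 estimated reads, and the test covered 15068 of the 24541 genes. Levels are given as TMM-scaled CPM, reads of a gene relative to library size, and differences as log2 fold changes, AKO minus WT, ± SE. A gene is said to have risen or fallen where its adjusted p was under 0.05 (edgeR quasi-likelihood test, Benjamini-Hochberg over all genes tested, n = 3 libraries per group). The first principal component of the young libraries (32.0% of the variance) separated the groups, with WT between 19.5 and 47.3 and AKO between -41.7 and -29.2. The second (27.0%) set WT replicate 1 apart, at 62.8, from WT replicates 2 and 3, at -27.2 and -41.5. The 10 most abundant genes took 14.5% to 18.1% of the reads.

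Crtc2 itself (chromosome 3, 90254281 to 90264125, mm10) gave 53.9, 67.2 and 79.4 CPM in WT, from 2684, 3567 and 4256 estimated reads. In the libraries labelled AKO it gave 164, 300.3 and 280.2 CPM, from 7751, 15024 and 15248 estimated reads. Every library labelled AKO was above every WT library, the opposite of what a knockout label names (1.89 ± 0.21, adjusted p = 0.00730). On the FPKM scale, per transcript length, the level was 24.6 ± 4.55 in WT and 85.3 ± 25.3 in AKO (SD, n = 3). At 18 months Crtc2 had 2918, 2891 and 2521 estimated reads in WT and 9179, 9977 and 9144 in AKO, again higher under the AKO label. The deposited table has 1 transcript for Crtc2, with 1 value for its whole length, so whether exons were removed cannot be read from it. Directions below are therefore those of the labels, and AKO means the libraries labelled AKO. Whether the labels of the groups were exchanged was not tested, and an exchange would turn every direction given here. With the 6 young libraries fitted alone the log2 fold change was 1.90 with an adjusted p of 0.120. The paralogs, which are also CREB coactivators, gave groups that overlapped. Crtc1 gave 15.6, 19.7 and 15.5 CPM in the WT libraries and 17.2, 16.7 and 17.7 in the AKO libraries (0.02 ± 0.11, adjusted p = 0.939). Crtc3 gave 31.2, 25.7 and 28.9 CPM in the WT libraries and 25.4, 28.3 and 28.4 in the AKO libraries (-0.06 ± 0.09, adjusted p = 0.753).

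Of 53 genes tested within 1 Mb of Crtc2, 0 rose and 0 fell, with a median log2 fold change of -0.01. Adipoq, whose promoter drives several adipocyte Cre lines, gave 6625, 3450.2 and 4528 CPM in the WT libraries and 3755, 5516 and 5202 in the AKO libraries, and the groups overlapped. Of 17 genes tested within 1 Mb of Adipoq 0 rose and 0 fell, and their median was 0.19. Kng1, a kininogen gene 64.5 kb from Adipoq, was outside the test. It had 0 reads in all 3 young WT libraries and 9, 7 and 3 in young AKO. At 18 months it had 0 in all WT libraries and 5, 8 and 2 in AKO. Rfc4, a replication factor subunit 18.8 kb from Adipoq, gave 3.66, 3.22 and 3.42 CPM in the WT libraries and 6.84, 5.64 and 4.61 in the AKO libraries (0.73 ± 0.16, adjusted p = 0.0573). Its groups did not overlap.

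Over all genes, 28 rose and 119 fell, which is 0.186% and 0.79% of the 15068 tested. An unadjusted p under 0.05 was found for 2943 genes, or 19.5%, of which 1328 were higher (8.81%) and 1615 lower (10.7%). The rises were mostly moderate in size, with a median log2 fold change of 0.52 and a median level of 51.8 CPM. The falls were larger and of less abundant genes, with a median of -1.31 and a median level of 7.29 CPM. The median over all genes was 0.01, with 48.4% below 0, at a median level of 16.3 CPM. All 147 called genes had groups that did not overlap. Among all genes tested 9.6% had AKO wholly above WT and 11% wholly below.

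**Figure D1:**
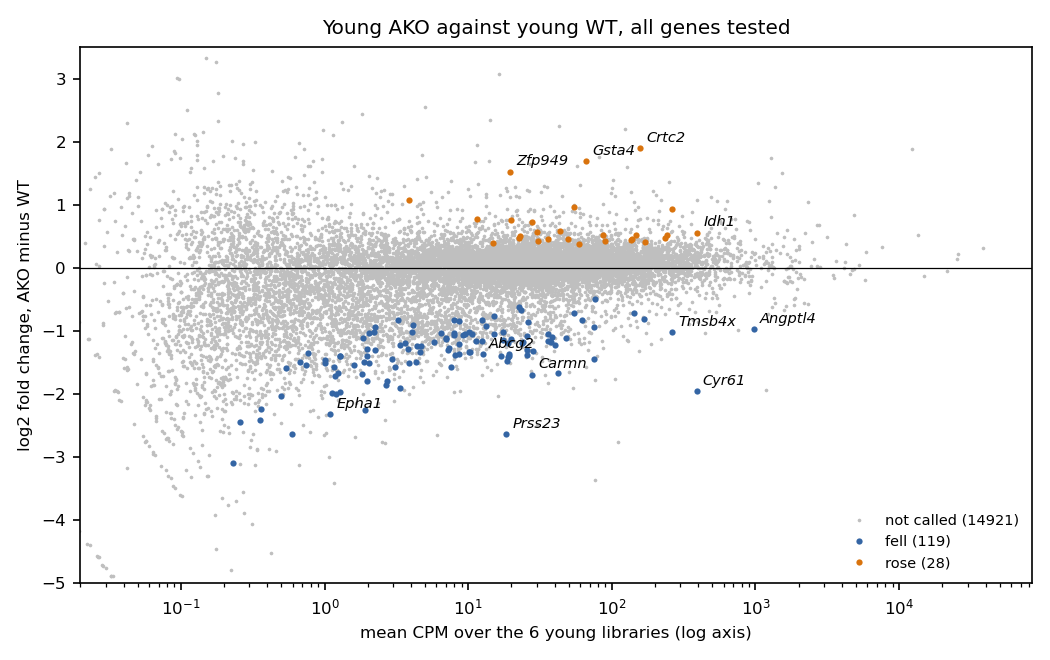
Log2 fold change of AKO minus WT against mean CPM over the 6 young libraries (log axis) for the genes tested, with called genes coloured. The 119 falls lie at lower levels (median 7.29 CPM) and further from 0 than the 28 rises (median 51.8 CPM). Genes beyond the axis, 76 in number and 6 of them called, are not drawn.

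How many genes were called depended on single libraries. Without WT replicate 2 or AKO replicate 3 the count was 8 and 5 in place of 147, and without WT replicate 1 it was 464. With the 6 young libraries fitted alone it was 4. Each of the 147 genes kept the sign of its fold change in all alternatives in which it was measured. Groups that do not overlap leave little room for another sign, so the kept signs are no separate evidence. Genes called in each of the 12 fits that leave out 1 library were Crtc2, Gsta4, Zfp973, Morf4l1-ps1 and Dynlt1b. Abcg2, Cyr61 and Fam124a were called in 11 of the 12.

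**Figure D2:**
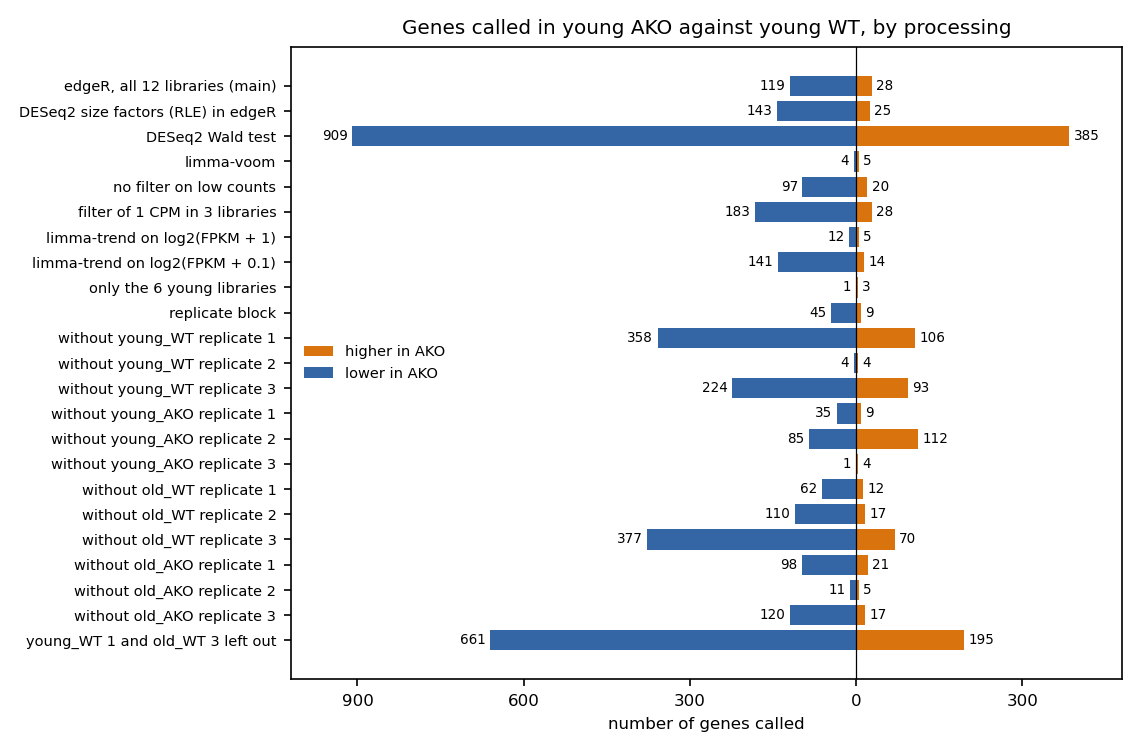
Number of genes called higher (right) and lower (left) in young AKO under the edgeR fit of all 12 libraries and each alternative. The edgeR fit of all 12 has 28 higher and 119 lower, the DESeq2 Wald test 385 and 909, and the fit of the 6 young libraries 3 and 1.

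Next to Crtc2, the largest rise of a gene with reads in both groups was that of Gsta4, a glutathione transferase that clears 4-hydroxynonenal and other products of lipid peroxidation. Gsta4 (chromosome 9, 78191966 to 78209349) gave 25.7, 40.4 and 28.5 CPM in the WT libraries and 122, 87.1 and 95.3 in the AKO libraries (1.69 ± 0.19, adjusted p = 0.00730). The lowest AKO library was well above the highest WT library. It was the 1 called gene among 40 glutathione transferases and antioxidant genes, whose median was near 0, while 0.186% of all genes rose. The mitochondrial superoxide dismutase Sod2 gave 225, 249 and 301 CPM in the WT libraries and 383, 325 and 435 in the AKO libraries (0.56 ± 0.13, adjusted p = 0.0581). Zfp949, a zinc finger gene on the same chromosome (chromosome 9, 88548020 to 88571086), gave 9.38, 9.304 and 11.6 CPM in the WT libraries and 20.1, 33.5 and 33.5 in the AKO libraries (1.53 ± 0.19, adjusted p = 0.0107). Summed per gene, the groups were well apart in both. For Zfp949 a transcript of 3351 bases had 0 reads in each WT library and 415, 620 and 801 in the AKO libraries. Its transcript of 3497 bases had 467, 494 and 620 reads in WT and 535, 1054 and 1024 in AKO, which overlap. At 18 months both were also called higher in AKO, Gsta4 by 1.82 and Zfp949 by 1.43.

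Other rises were of genes with varied roles. Pmp22, a membrane protein gene best known from myelin, gave 146, 216 and 181 CPM in the WT libraries and 389, 312 and 337 in the AKO libraries (0.93 ± 0.15, adjusted p = 0.0290). Dusp4, a nuclear phosphatase that inactivates MAP kinases, gave 33.2, 40.4 and 36.9 CPM in the WT libraries and 87.8, 66.9 and 60.1 in the AKO libraries (0.96 ± 0.15, adjusted p = 0.0290). In both genes AKO replicate 1 was the highest library. The other MAP kinase phosphatases, 10 of the 11 tested, had log2 fold changes below 0 and 0 were called. Idh1, the cytosolic isocitrate dehydrogenase that makes NADPH, rose from 319 ± 4.44 to 470 ± 45.6 CPM (0.56 ± 0.09, adjusted p = 0.0290). Zfp467, a zinc finger factor that favours adipocyte over bone cell formation, rose from 24.2 ± 3.32 to 36.1 ± 2.52 CPM (0.57 ± 0.11, adjusted p = 0.0437) and was the 1 of 17 adipogenic factors called. Pik3r2, a regulatory subunit of PI3 kinase, rose by a small step from 51.5 ± 1.804 to 66.7 ± 1.07 CPM (0.37 ± 0.07, adjusted p = 0.0455). Acot2, a mitochondrial acyl-CoA thioesterase, rose from 18.97 ± 0.321 to 27.02 ± 1.57 CPM (0.51 ± 0.09, adjusted p = 0.0298), the 1 of 27 fatty acid oxidation genes called. Over all genes tested 0.186% rose. The chromatin remodeller Chd7 (0.59 ± 0.12, adjusted p = 0.0491), the SUMO protease Senp3 (0.46 ± 0.08, adjusted p = 0.0305), the N-terminal acetyltransferase subunit Naa38 (0.46 ± 0.08, adjusted p = 0.0290) and the matrix gene Sned1 (0.77 ± 0.14, adjusted p = 0.0378) rose too. Ly6h rose from a low level of 2.51 ± 0.121 in WT to 5.28 ± 1.27 CPM (1.07 ± 0.18, adjusted p = 0.0295).

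Nuclear genes of the respiratory chain, the mitochondrial complexes that pass electrons to oxygen and make ATP, had fold changes of 1 sign. Those of the mitochondrial genome were not analysed here. Of 78 tested, 8 rose, against 0.186% of all genes, and 0 fell. The median was 0.36, and 0 had a fold change below 0. In 67 of the 78 every AKO library was above every WT library, against 9.6% of all genes. The called subunits belong to complex I (Ndufb7 and Ndufb10), complex III (Uqcr10), complex IV (Cox5b, Cox7a2 and Cox7b) and ATP synthase (Atp5k and Atp5o). Cox7b gave 109.9, 124 and 128 CPM in the WT libraries and 172, 159 and 187 in the AKO libraries (0.52 ± 0.09, adjusted p = 0.0290). Ndufb7 gave 67.6, 69.3 and 77.2 CPM in the WT libraries and 105, 93.5 and 108 in the AKO libraries (0.52 ± 0.08, adjusted p = 0.0290). Uqcr10 gave 111, 116 and 121 CPM in the WT libraries and 154, 157 and 166 in the AKO libraries (0.46 ± 0.08, adjusted p = 0.0298). In each of these the lowest AKO library was above the highest WT library. Atp5o gave 184, 191 and 213 CPM in the WT libraries and 295, 243 and 279.6 in the AKO libraries (0.47 ± 0.09, adjusted p = 0.0400). These steps were small, and AKO replicate 2 was the lowest AKO library for Cox7b, Ndufb7 and Atp5o. The other 4 had fold changes of 0.41 (Ndufb10) to 0.52 (Cox5b). Leaving out WT replicate 2, AKO replicate 1 or AKO replicate 3 left 0 of the 78 called, with medians of 0.37, 0.36 and 0.33. The mean of the list's centred log2 CPM was -0.30, -0.17 and -0.08 in the WT libraries and 0.21, 0.10 and 0.24 in the AKO libraries.

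Of 27 genes of the tricarboxylic acid cycle and pyruvate use 0 were called, with a median of 0.38 and 25 above 0. Sdhb, shared by the cycle and complex II, gave 163, 179 and 204 CPM in the WT libraries and 235, 245 and 258 in the AKO libraries (0.43 ± 0.09, adjusted p = 0.0570). Pdha1 of pyruvate dehydrogenase gave 391, 437 and 451 CPM in the WT libraries and 937, 520.5 and 674 in the AKO libraries (0.74 ± 0.18, adjusted p = 0.0717), with AKO replicate 1 far above the others. Mpc1 of the mitochondrial pyruvate carrier gave 154, 197 and 174 CPM in the WT libraries and 324, 204 and 301 in the AKO libraries (0.66 ± 0.17, adjusted p = 0.0752). The groups did not overlap in these genes. Of 57 mitochondrial ribosomal proteins 0 were called and 56 were above 0, at a median of 0.24. Mrpl54, a ribosomal protein outside that list, rose from 26.2 ± 1.12 to 35.2 ± 0.479 CPM (0.43 ± 0.07, adjusted p = 0.0290). Fatty acid oxidation had a median of 0.20 and branched-chain amino acid catabolism one of 0.15 with 0 of 25 called. Without AKO replicate 3 these medians were 0.13 and 0.08, and the second was 0.23 without WT replicate 3 and 0.23 without AKO replicate 1.

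Lipid synthesis had the highest list medians, but its spread between libraries was wide. Of 24 genes of fatty acid and triglyceride synthesis 0 were called and the median was 0.75. In 4 of them AKO lay wholly above WT, against 9.6% of all genes. Fasn, fatty acid synthase, gave 1484, 7757 and 6548 CPM in the WT libraries and 34134, 6085 and 18138 in the AKO libraries (1.89 ± 0.67, adjusted p = 0.153). AKO replicate 2 was below both of the higher WT libraries, and WT replicate 1 stood far below the rest. Acaca, acetyl-CoA carboxylase, gave 353, 890 and 1156 CPM in the WT libraries and 3871, 973 and 1970.4 in the AKO libraries (1.51 ± 0.52, adjusted p = 0.142), with the same order of libraries in AKO. Agpat2, an acyltransferase of triglyceride synthesis, gave 394, 728 and 636 CPM in the WT libraries and 2282, 789.7 and 1412 in the AKO libraries (1.35 ± 0.34, adjusted p = 0.0731). Here the groups did not overlap, by a narrow margin. Mlxipl, the carbohydrate response factor ChREBP, gave 102, 139 and 189 CPM in the WT libraries and 257, 229 and 237 in the AKO libraries (0.75 ± 0.19, adjusted p = 0.0763). All 23 genes of the cholesterol synthesis list had fold changes above 0, with a median of 0.62 and 0 called. In 2 of them AKO lay wholly above WT, near the 9.6% of all genes. Without AKO replicate 1 the median was 0.22, and without AKO replicate 2 it was 0.92 with 4 risen. In the fit without AKO replicate 2, 112 of all 15382 genes tested rose and 85 fell. The list's mean centred log2 CPM was -0.47, -0.22 and -0.13 in the WT libraries and 0.95, -0.32 and 0.20 in the AKO libraries, with AKO replicate 1 far above and AKO replicate 2 among the WT libraries.

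**Figure D3:**
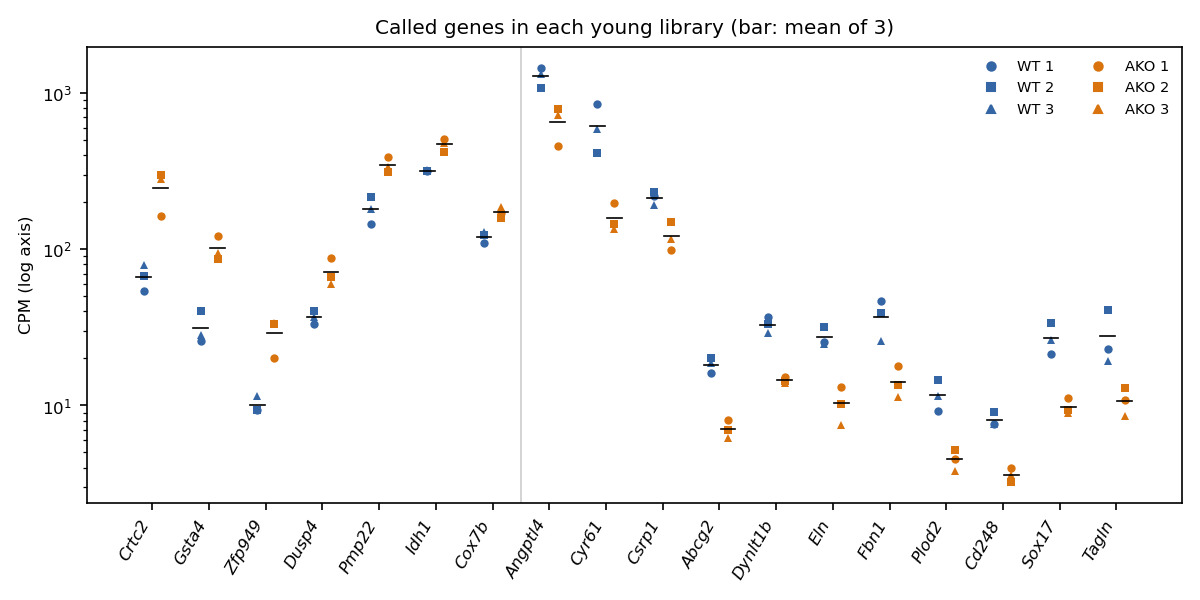
CPM (log axis) of 18 called genes in each young library, with the mean of 3 libraries as a bar. To the left of the line are genes that rose, to the right genes that fell, and the groups do not overlap in any of them.

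Among 16 adipocyte markers 0 were called: the median was 0.13, 9 were above 0 and 4 had AKO wholly above WT, against 9.6% of all genes. Lpl, lipoprotein lipase, gave 10643, 10093 and 12468 CPM in the WT libraries and 15943, 14039 and 17579 in the AKO libraries (0.52 ± 0.21, adjusted p = 0.196). Plin1, the main lipid droplet coat protein, gave 1683, 1811 and 1838 CPM in the WT libraries and 2221, 2119.8 and 2451 in the AKO libraries (0.35 ± 0.14, adjusted p = 0.186). Slc2a4, the insulin-responsive glucose transporter, gave 294, 253 and 250 CPM in the WT libraries and 348, 378 and 390.2 in the AKO libraries (0.48 ± 0.14, adjusted p = 0.0912). The groups did not overlap in these genes, yet none passed. Lists for lipolysis and lipid droplets (17 genes, median 0.12) and for insulin signalling (22 genes, median 0.11) had 0 calls. These small medians moved with single libraries: that of the markers was 0.06 to 0.22 without AKO replicate 2 or 1, that of lipolysis 0.19 without WT replicate 3, and that of insulin signalling 0.04 to 0.18 without AKO replicate 3 or WT replicate 3. Among adipokines Angptl4, a secreted inhibitor of lipoprotein lipase, fell. It gave 1456, 1081 and 1322 CPM in the WT libraries and 457, 789 and 719.8 in the AKO libraries (-0.97 ± 0.19, adjusted p = 0.0407) and was the most abundant gene that fell. AKO replicate 1 was the lowest library, and all AKO libraries were below all WT libraries. The adipokine resistin, Retn, gave 1575, 2124 and 2519 CPM in the WT libraries and 3262, 2891 and 3752 in the AKO libraries (0.67 ± 0.26, adjusted p = 0.181).

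Direct targets of CREB and its coactivators gave no calls in the edgeR fit of all 12 libraries. Of 26 tested 0 rose and 0 fell, 18 were below 0 and the median was -0.35. AKO lay wholly below WT in 6 and wholly above in 2, against 11% and 9.6% of all genes. Without WT replicate 1, 5 of the 26 fell, where 464 genes were called in all. By the DESeq2 Wald test 8 of 27 fell, where 1294 genes were called in all. In both cases 0 of the list rose. Pde4b, a phosphodiesterase that breaks down cyclic AMP, gave 28.4, 52.1 and 45.6 CPM in the WT libraries and 24.7, 18.01 and 19.4 in the AKO libraries (-1.02 ± 0.23, adjusted p = 0.0576). Sik1, a salt-inducible kinase that acts on CRTC proteins, gave 101, 181 and 136 CPM in the WT libraries and 77.7, 66.3 and 72.1 in the AKO libraries (-0.95 ± 0.23, adjusted p = 0.0652). Ddit4, an inhibitor of mTORC1, gave 27.5, 24.5 and 32.7 CPM in the WT libraries and 14.6, 10.7 and 17.8 in the AKO libraries (-0.97 ± 0.23, adjusted p = 0.0652). In all of these the AKO libraries were below the WT libraries. The orphan nuclear receptor genes Nr4a1 (-0.82 ± 0.26, adjusted p = 0.115), Nr4a2 (-0.86 ± 0.25, adjusted p = 0.0976) and Nr4a3 (-1.25 ± 0.39, adjusted p = 0.110) are classical CREB targets. Nr4a1 gave 309, 484 and 618 CPM in the WT libraries and 226, 247 and 323 in the AKO libraries, and its groups overlapped. Fos gave 2277, 2269 and 1959 CPM in the WT libraries and 1521, 1874 and 1754 in the AKO libraries (-0.34 ± 0.11, adjusted p = 0.138) and Atf3 287, 334 and 722 CPM in the WT libraries and 179, 277 and 266 in the AKO libraries (-0.90 ± 0.32, adjusted p = 0.152). Several of these genes are also known to respond to the preparation of cells, and the list of immediate early and dissociation genes had a median of -0.34 with 0 of 28 called. Of 15 cyclic AMP phosphodiesterases 0 were called (median -0.40). Without WT replicate 1 their median was -0.11 with 2 fallen, where 358 of all 15388 genes tested fell. Of 22 genes for beta-adrenergic receptors, adenylyl cyclases and protein kinase A 0 were called (median -0.07, or -0.15 without WT replicate 1 and -0.12 without AKO replicate 2).

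The full cyclic AMP response element, TGACGTCA, was looked for in RefSeq promoters of GRCm38.p6, 250 bases before to 50 after each start. The motif reads the same on both strands and contains the shorter core TGACG. It was found in 588 of 32851 promoters in the table (1.79%), and the core on either strand in 20.8%. A promoter was at hand for 78.5% of the genes tested, under the 80% needed, so the comparison of called genes with all genes is void. The full element was in 1 of the 20 rises and 3 of the 91 falls that have a promoter. It was in 2 of the 21 CREB and CRTC targets that have one, and the core in 17 of them. That list was chosen as targets of CREB, so its share says nothing about the AKO libraries. Of the 11829 tested genes with a promoter, 393 had the full element (3.32%) and 3945 the core (33.4%). The shares of 1.79% and 20.8% count promoters instead of genes. The promoters of Txnl4b, Plk2 and Abcg2 are shown because each is a called gene with a full element near a start, and capitals mark the element. Txnl4b, a splicing factor gene that rose, has it 33 bases before its start (chr8:109565642-109565941, + strand). Plk2, a kinase gene induced by growth factors and stress that fell, has it 62 bases before its start (chr13:110394794-110395093, + strand). Abcg2, an efflux transporter gene that fell, has it 37 bases before a RefSeq start (chr6:58640296-58640595, + strand) that lies 43.9 kb downstream of the start of its deposited transcript. Arl4d, a small GTPase gene that fell (-1.497 ± 0.30, adjusted p = 0.0491), also has one. A match describes the letters only.
Txnl4b: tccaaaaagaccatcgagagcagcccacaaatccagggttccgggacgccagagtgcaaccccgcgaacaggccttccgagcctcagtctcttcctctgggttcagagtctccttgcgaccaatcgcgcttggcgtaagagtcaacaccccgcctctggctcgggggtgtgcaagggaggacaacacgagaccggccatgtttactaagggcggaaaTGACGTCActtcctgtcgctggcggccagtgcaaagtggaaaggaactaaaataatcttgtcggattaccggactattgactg
Plk2: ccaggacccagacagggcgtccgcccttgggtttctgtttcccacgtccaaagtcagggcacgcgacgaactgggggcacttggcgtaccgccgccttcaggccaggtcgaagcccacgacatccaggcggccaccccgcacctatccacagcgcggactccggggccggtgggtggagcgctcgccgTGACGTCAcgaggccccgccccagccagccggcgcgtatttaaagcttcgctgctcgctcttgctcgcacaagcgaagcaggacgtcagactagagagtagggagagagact
Abcg2: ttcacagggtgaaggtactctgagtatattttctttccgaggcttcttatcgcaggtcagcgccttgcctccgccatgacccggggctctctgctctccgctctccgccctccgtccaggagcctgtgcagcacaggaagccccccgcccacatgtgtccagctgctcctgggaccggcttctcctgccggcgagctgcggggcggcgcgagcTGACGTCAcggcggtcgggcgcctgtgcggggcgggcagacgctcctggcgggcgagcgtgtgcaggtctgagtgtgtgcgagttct

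Txnl4b gave 20.4, 21.1 and 21.4 CPM in the WT libraries and 28.6, 40.98 and 35.3 in the AKO libraries (0.73 ± 0.12, adjusted p = 0.0290). Plk2 gave 46.5, 61.8 and 47.7 CPM in the WT libraries and 27.3, 22.1 and 20.1 in the AKO libraries (-1.17 ± 0.22, adjusted p = 0.0387). Abcg2 (chromosome 6, 58596672 to 58692451) gave 16.2, 20.04 and 18.6 CPM in the WT libraries and 8.09, 6.92 and 6.21 in the AKO libraries (-1.37 ± 0.16, adjusted p = 0.00730). The groups were apart in each, and Abcg2, with its small spread, was one of the most stable calls. Both were also called lower at 18 months, with log2 fold changes of -0.82 for Abcg2 and -1.26 for Plk2.

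Many of the genes that fell encode extracellular matrix. Of 44 genes of elastic fibres and other matrix 7 fell and 1, Sned1, rose, against 0.79% and 0.186% of all genes. The list's median was -1.003, and in 21 of 44 AKO lay wholly below WT, against 11% of all genes. Eln, elastin, gave 25.6, 32.04 and 24.7 CPM in the WT libraries and 13.2, 10.2 and 7.55 in the AKO libraries (-1.41 ± 0.22, adjusted p = 0.0290). Fbn1, the microfibril protein fibrillin 1, gave 46.4, 39.2 and 25.8 CPM in the WT libraries and 17.9, 13.5 and 11.3 in the AKO libraries (-1.38 ± 0.23, adjusted p = 0.0290). Fbln2, fibulin 2, gave 80.4, 71.1 and 40.3 CPM in the WT libraries and 22.4, 22.5 and 15.7 in the AKO libraries (-1.66 ± 0.28, adjusted p = 0.0290). WT replicate 3 was the lowest WT library in each. Postn, the matricellular protein periostin, gave 27.05, 40.9 and 36.6 CPM in the WT libraries and 20.2, 14.9 and 14.5 in the AKO libraries (-1.07 ± 0.21, adjusted p = 0.0431). Hmcn1 (-1.97 ± 0.32, adjusted p = 0.0290), Cilp (-2.25 ± 0.40, adjusted p = 0.0298) and the microfibril gene Mfap2 (-1.498 ± 0.28, adjusted p = 0.0373) fell too, from levels of 2.05, 3.17 and 0.997 CPM in WT. By contrast Lum, the proteoglycan lumican, gave 11.5, 12.9 and 13.2 CPM in the WT libraries and 12.1, 11.6 and 11.5 in the AKO libraries (-0.09 ± 0.16, adjusted p = 0.810). Of 26 collagen genes 0 were called, with a median of -0.66 and 23 below 0. Without WT replicate 1 their median was -0.42 with 2 fallen, where 358 of all 15388 genes tested fell. Without WT replicate 2 it was -0.43. Markers of progenitors and fibroblasts, a list that shares Fbn1 with this one, summed to 847 to 1166 CPM in WT and 556 to 805 in AKO without C3 and Gsn, and their part in the matrix result was not tested.

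Enzymes that build and cut the matrix fell in 6 of 39 members, against 0.79% of all genes, with 0 risen and a median of -0.55. Plod2, a lysyl hydroxylase of collagen, gave 9.18, 14.5 and 11.6 CPM in the WT libraries and 4.55, 5.18 and 3.804 in the AKO libraries (-1.38 ± 0.19, adjusted p = 0.0230). Loxl2, which cross-links collagen and elastin, gave 13.7, 18.6 and 11.7 CPM in the WT libraries and 7.68, 4.94 and 4.93 in the AKO libraries (-1.33 ± 0.21, adjusted p = 0.0290). Mmp14, a membrane metalloproteinase, gave 17.7, 31.1 and 21.3 CPM in the WT libraries and 12.2, 11.3 and 11.03 in the AKO libraries (-1.02 ± 0.20, adjusted p = 0.0434). The groups did not overlap in any of these. Timp2, a metalloproteinase inhibitor, gave 68.6, 80.3 and 48.9 CPM in the WT libraries and 30.3, 31.8 and 29.6 in the AKO libraries (-1.11 ± 0.22, adjusted p = 0.0477). WT replicate 2 was the highest library for all 4 enzymes and inhibitors. Prss23, a serine protease, gave 41.9, 43.7 and 9.87 CPM in the WT libraries and 7.01, 3.68 and 4.63 in the AKO libraries (-2.64 ± 0.48, adjusted p = 0.0322): WT replicate 3 was close to the AKO libraries. Wfdc1, a protease inhibitor gene, fell from a low level (-2.41 ± 0.45, adjusted p = 0.0371). Without WT replicate 2 or AKO replicate 3 both lists had 0 calls, with medians of -0.78 and -0.84 for matrix and -0.45 and -0.40 for enzymes.

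Cyr61 was an abundant gene that fell. It encodes CCN1, a secreted matricellular protein and a target of the YAP and TAZ coactivators. Cyr61 gave 849, 412 and 593 CPM in the WT libraries and 198, 146 and 135 in the AKO libraries (-1.95 ± 0.26, adjusted p = 0.0193). The highest AKO library was under the lowest WT library by a wide gap, and WT replicate 1 was the highest. Of 20 CCN and YAP/TAZ target genes 2 fell, Cyr61 and Fstl1, against 0.79% of all genes. In this list 19 were below 0 with a median of -0.83. Fstl1, a secreted follistatin-like protein, gave 38.4, 42.7 and 28.2 CPM in the WT libraries and 18.5, 13.9 and 12.1 in the AKO libraries (-1.30 ± 0.19, adjusted p = 0.0290). Ctgf gave 10.3, 8.95 and 7.88 CPM in the WT libraries and 6.73, 2.46 and 2.499 in the AKO libraries (-1.22 ± 0.37, adjusted p = 0.108) and the angiomotin gene Amotl2 gave 597, 575 and 583 CPM in the WT libraries and 333, 456 and 306 in the AKO libraries (-0.68 ± 0.16, adjusted p = 0.0689). Among other abundant genes that fell, Tmsb4x, thymosin beta 4, which binds actin monomers, gave 352, 374 and 333 CPM in the WT libraries and 213, 165 and 144 in the AKO libraries (-1.02 ± 0.20, adjusted p = 0.0448). Csrp1, a LIM protein of actin bundles, gave 220.4, 232 and 192 CPM in the WT libraries and 99.3, 149 and 117 in the AKO libraries (-0.82 ± 0.15, adjusted p = 0.0319). Vasn, vasorin, which binds TGF-beta, gave 118, 79.3 and 97.3 CPM in the WT libraries and 41.7, 52.8 and 59.9 in the AKO libraries (-0.93 ± 0.18, adjusted p = 0.0452). The groups did not overlap in these genes. Mafk, a small Maf factor (-0.83 ± 0.16, adjusted p = 0.0448), and Tmcc3 (-0.72 ± 0.12, adjusted p = 0.0290) fell as well.

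Few genes of blood vessels were called, all of them falls. Of 30 genes of VEGF, angiopoietin and Notch signalling 2 fell, against 0.79% of all genes, the median was -0.74 and 26 were below 0. Pgf, placental growth factor, gave 3.66, 5.16 and 3.81 CPM in the WT libraries and 1.04, 1.099 and 1.49 in the AKO libraries (-1.80 ± 0.24, adjusted p = 0.0219). Epha1, an ephrin receptor, gave 1.27, 1.73 and 2.501 CPM in the WT libraries and 0.423, 0.440 and 0.239 in the AKO libraries (-2.32 ± 0.33, adjusted p = 0.0242). Vegfa, made by adipocytes among other cells, gave 635, 516 and 584 CPM in the WT libraries and 379.7, 424 and 439 in the AKO libraries (-0.48 ± 0.11, adjusted p = 0.0649). Sox17, a factor of arterial endothelium, gave 21.4, 33.8 and 26.4 CPM in the WT libraries and 11.1, 9.296 and 8.95 in the AKO libraries (-1.48 ± 0.26, adjusted p = 0.0298) and was the 1 of 21 endothelial markers called. Gja5, the arterial gap junction protein connexin 40 (-1.69 ± 0.34, adjusted p = 0.0491), Ace, angiotensin-converting enzyme (-1.19 ± 0.23, adjusted p = 0.0441), Vash1, vasohibin (-1.15 ± 0.23, adjusted p = 0.0455), and Hhex (-1.28 ± 0.26, adjusted p = 0.0467) fell and were outside the lists. They were put side by side after their values were seen and stand for no group. Pecam1 gave 118, 216 and 150.1 CPM in the WT libraries and 84.8, 78.8 and 66.5 in the AKO libraries (-1.08 ± 0.25, adjusted p = 0.0642), and the endothelial tight junction gene Cldn5 gave 174, 332 and 276 CPM in the WT libraries and 121, 109 and 109 in the AKO libraries (-1.20 ± 0.28, adjusted p = 0.0618). In most of these genes WT replicate 2 was the highest library. The endothelial markers as a whole, without Rgcc, summed to 1083 to 2064 CPM in WT and 685 to 979 in AKO, and their part in the vessel result was not tested.

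Of 15 smooth muscle and pericyte markers tested 1 fell, against 0.79% of all genes. Tagln, an actin-binding protein of contractile cells, gave 23.1, 40.6 and 19.3 CPM in the WT libraries and 10.8, 12.9 and 8.53 in the AKO libraries (-1.37 ± 0.27, adjusted p = 0.0455). Carmn, a noncoding RNA of smooth muscle, gave 35.5, 33.4 and 58.2 CPM in the WT libraries and 10.5, 18.2 and 10.6 in the AKO libraries (-1.69 ± 0.31, adjusted p = 0.0322). Bvht, another noncoding RNA (-1.57 ± 0.28, adjusted p = 0.0298), and Mir145a, a microRNA precursor (-2.62 ± 0.47, adjusted p = 0.0316), lie at the same place and also fell. Carmn (chromosome 18, 61645878 to 61665538) contains Mir145a and overlaps Bvht, and the labels do not say that strand was kept, so their reads cannot be told apart. The 10 Mb bin with these genes had 4 of 74 called, as many as any other bin.

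The levels of markers of other cell types moved with the groups. The sums over 21 endothelial and 23 progenitor and fibroblast markers were given above. Members above 500 CPM on average were left out of these sums, since 1 gene would otherwise set them. Smooth muscle and pericyte markers (16, without Mcam) summed to 686 to 951 CPM in WT and 444 to 609 in AKO, mesothelial markers (16) to 59.9 to 144 CPM in WT and 29.4 to 52.03 in AKO and macrophage markers (26, without Lpl) to 519 to 649.6 CPM in WT and 339 to 419 in AKO. With the abundant members left out, the AKO range was below the WT range in all of these lists, and no marker was at 0 in all libraries. Over all members progenitor and fibroblast markers summed to 20012 to 27539 CPM in WT and 15791 to 29420 in AKO, which overlap, and macrophage markers, mostly Lpl, to 10743 to 12986 CPM in WT and 14458 to 17918 in AKO, with AKO above. T and NK cell markers (16) summed to 3.43 to 4.88 CPM in WT and 1.599 to 2.27 in AKO, and B and plasma cell markers (12) to 2.49 to 4.76 CPM in WT and 1.62 to 2.399 in AKO. Mast cell markers (10, of which 3 had no reads) summed to 14.7 to 19.6 CPM in WT and 7.94 to 12.04 in AKO. Neutrophil markers (9, of which 1 had no reads) summed to 5.205 to 5.93 CPM in WT and 3.81 to 7.204 in AKO, and the groups overlapped. Skeletal muscle markers (10, of which 2 had no reads) summed to 54.6 to 217 CPM in WT and 13.3 to 67.03 in AKO, with overlapping groups, and epididymis and testis markers (18, of which 6 had no reads) to 2.11 to 22.6 CPM in WT and 0.368 to 1.44 in AKO. Schwann cell and nerve markers (11, of which Pmp22 rose) summed to 475 to 500 CPM in WT and 648 to 667 in AKO, with AKO above. The mean of their centred log2 CPM was 0.12, -0.26 and -0.15 in the WT libraries. In the AKO libraries it was -0.03, 0.14 and 0.19, and on this measure the groups overlapped. Erythroid markers (7) summed to 120.3 to 463 CPM in WT and 117 to 219.7 in AKO, with overlap. The part of these cells in the calls was not tested. In bulk RNA, fewer cells of a type and less RNA per cell cannot be told apart.

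Medians over the marker lists were -0.98 for endothelium, -1.06 for progenitors and fibroblasts, -0.85 for smooth muscle and pericytes, -1.21 for mesothelium and -0.88 for macrophages. Called members were Cd248 (-1.17 ± 0.17, adjusted p = 0.0230), Cd34 (-1.16 ± 0.23, adjusted p = 0.0434) and Fbn1 of the 22 progenitor markers tested. Cd248, endosialin of stromal cells, gave 7.56, 9.04 and 7.58 CPM in the WT libraries and 3.98, 3.22 and 3.57 in the AKO libraries. Of 16 mesothelial markers Cldn15 (-1.13 ± 0.22, adjusted p = 0.0431) and Ildr2 (-1.80 ± 0.37, adjusted p = 0.0491) were called. Over all genes tested 0.79% fell. Of 26 macrophage markers 0 were called. AKO lay wholly below WT in 18 of them and wholly above in 1, against 11% and 9.6% of all genes. C1qa gave 28.9, 26.5 and 23.4 CPM in the WT libraries and 16.4, 13.3 and 10.97 in the AKO libraries (-0.96 ± 0.29, adjusted p = 0.110). The mesothelial mean of centred log2 CPM was 1.5002, 0.39 and -0.03 in the WT libraries and 0.02, -1.46 and -0.42 in the AKO libraries: WT replicate 1 was far above and AKO replicate 2 far below. Without WT replicate 1 the mesothelial median was -0.63. The endothelial mean was -0.02, 0.84 and 0.50 in the WT libraries and -0.14, -0.51 and -0.67 in the AKO libraries. Here WT replicate 1 was close to AKO replicate 1, and without it the median was -1.15 with 13 of 21 called. In that fit 358 of all 15388 genes tested fell and 106 rose, so calls were more frequent throughout.

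**Figure D4:**
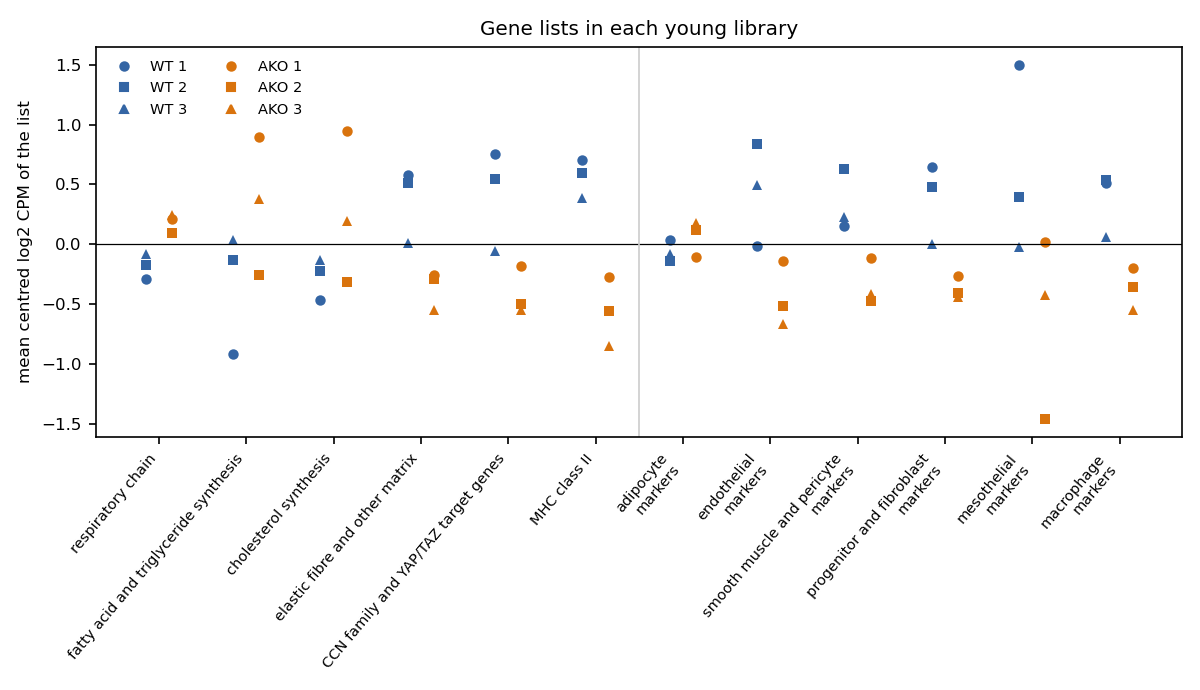
Mean of centred log2 CPM over the members of 12 gene lists in each young library (pathways left of the line, cell type markers right of it). Respiratory chain genes are higher in every AKO library, matrix and endothelial lists lower, and the adipocyte markers overlap.

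The lists for MHC class II, interferon-stimulated genes and chemokines gave 0 calls. All 10 MHC class II genes had fold changes below 0, with a median of -1.19 and 0 called. In 9 of the 10 AKO lay wholly below WT and in 0 wholly above, against 11% and 9.6% of all genes. H2-Ab1 gave 86.95, 70.2 and 59.1 CPM in the WT libraries and 34.7, 33.7 and 25.01 in the AKO libraries (-1.21 ± 0.31, adjusted p = 0.0768), and Cd74, the invariant chain, 206, 181 and 152 CPM in the WT libraries and 91.5, 82.04 and 67.5 in the AKO libraries (-1.16 ± 0.30, adjusted p = 0.0770). The AKO libraries were below the WT libraries in both. Of 26 interferon-stimulated genes in the list 0 were called (median -0.44, or -0.21 without WT replicate 2), with AKO wholly below WT in 8 and wholly above in 1. Outside that list Sp100 (-0.92 ± 0.13, adjusted p = 0.0260), Gbp9 (-1.40 ± 0.23, adjusted p = 0.0290), Phf11d (-1.18 ± 0.17, adjusted p = 0.0230), Ifitm3 (-0.72 ± 0.13, adjusted p = 0.0298) and Sp110 (-0.90 ± 0.18, adjusted p = 0.0452) fell. They were put side by side after their values were seen and stand for no group. Sp100 gave 18.1, 19.3 and 14.4 CPM in the WT libraries and 9.801, 9.18 and 8.44 in the AKO libraries. Irf1, an interferon regulatory factor, gave 205, 339.7 and 509 CPM in the WT libraries and 559, 649 and 982 in the AKO libraries (1.06 ± 0.30, adjusted p = 0.0958), and its groups did not overlap either, with AKO above. Itgal, the leukocyte integrin LFA-1 alpha chain, fell from 1.802 ± 0.672 to 0.549 ± 0.0301 CPM (-1.71 ± 0.29, adjusted p = 0.0298). Of 26 chemokines and cytokines 0 were called (median -0.86), with AKO wholly below WT in 12 and wholly above in 2. The chemokine Ccl17, outside that list, had 36, 23 and 16 reads in WT and 0 in each AKO library, at least 24.5-fold lower when 3 reads summed over the 3 libraries are taken as the floor (adjusted p = 0.0387). Intervals and floors of this kind cover counting error only.

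Several calls concern genes whose reads may be shared between copies. Zfp973 had 0 reads in all WT libraries and 165, 147 and 163 in AKO, at least 163.85-fold higher by the same floor (adjusted p = 0.00134). Its 2 transcripts are placed at separate sites on chromosome 2, and one site overlaps that of Zfp965. Zfp965 had 0 reads in WT and 159, 141 and 154 in AKO (adjusted p = 0.148). Dynlt1b, a dynein light chain (chromosome 17, 6430112 to 6436295), gave 36.8, 33.1 and 28.9 CPM in the WT libraries and 15.3, 14.3 and 13.9 in the AKO libraries (-1.19 ± 0.11, adjusted p = 0.00243). Dynlt1c, a neighbouring copy, fell too (-0.62 ± 0.11, adjusted p = 0.0293), and Dynlt1a gave 13.2, 8.66 and 5.096 CPM in the WT libraries and 3.28, 7.12 and 3.33 in the AKO libraries (-0.97 ± 0.36, adjusted p = 0.169). Morf4l1-ps1 gave 15.1, 14.2 and 14.7 CPM in the WT libraries and 24.7, 26.2 and 23.5 in the AKO libraries (0.76 ± 0.07, adjusted p = 0.00253) and Morf4l1b 20.2, 17.8 and 18.4 CPM in the WT libraries and 26.2, 27.1 and 25.1 in the AKO libraries (0.48 ± 0.08, adjusted p = 0.0290). Their parent Morf4l1, a chromatin protein gene, gave 244, 246 and 233 CPM in the WT libraries and 214, 224 and 199 in the AKO libraries (-0.18 ± 0.07, adjusted p = 0.194). Levels of these genes are therefore uncertain. Reads lay in different copies in different libraries for Rps27, which gave 113, 3.69 and 93.1 CPM in the WT libraries and 101, 3.38 and 83.6 in the AKO libraries, while its copy Rps27rt gave 3.15, 80.2 and 2.95 CPM in the WT libraries and 1.61, 99.9 and 1.93 in the AKO libraries. The replicate 2 libraries of both groups hold the reads in the other copy. For alpha globin the reads lay mainly in Hba-a1 in AKO replicates 1 and 3 and mainly in Hba-a2 in the other libraries. Hba-a1 gave 4.66, 4.44 and 5.003 CPM in the WT libraries and 114, 1.94 and 143 in the AKO libraries, and Hba-a2 gave 113, 289 and 179.9 CPM in the WT libraries and 0.212, 85.2 and 0.147 in the AKO libraries.

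Other genes had reads in one young group alone without being called. Akr1b7, an aldo-keto reductase, had 28, 729 and 46 reads in WT and 0 in AKO (adjusted p = 0.132). Crisp1, a secretory protein of the epididymis, had 271, 406 and 18 reads in WT and 0 in AKO (adjusted p = 0.111). Gm3383 had 26, 36 and 46 in WT and 0 in AKO (adjusted p = 0.0652). The WT libraries differed widely from each other for Akr1b7 and Crisp1. Among called genes Slc38a5, Gpr176, Grin1os and Fpr2 were also at 0 in all AKO libraries, and none exceeded 0.301 CPM in WT. Of the 119 falls 16 had a mean under 1 CPM. The epididymis and testis markers, a list that includes Crisp1 and Akr1b7, summed to 8.86, 22.6 and 2.11 CPM in the WT libraries and 1.44, 0.440 and 0.368 in the AKO libraries, and their part in these genes was not tested.

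**Figure D5:**
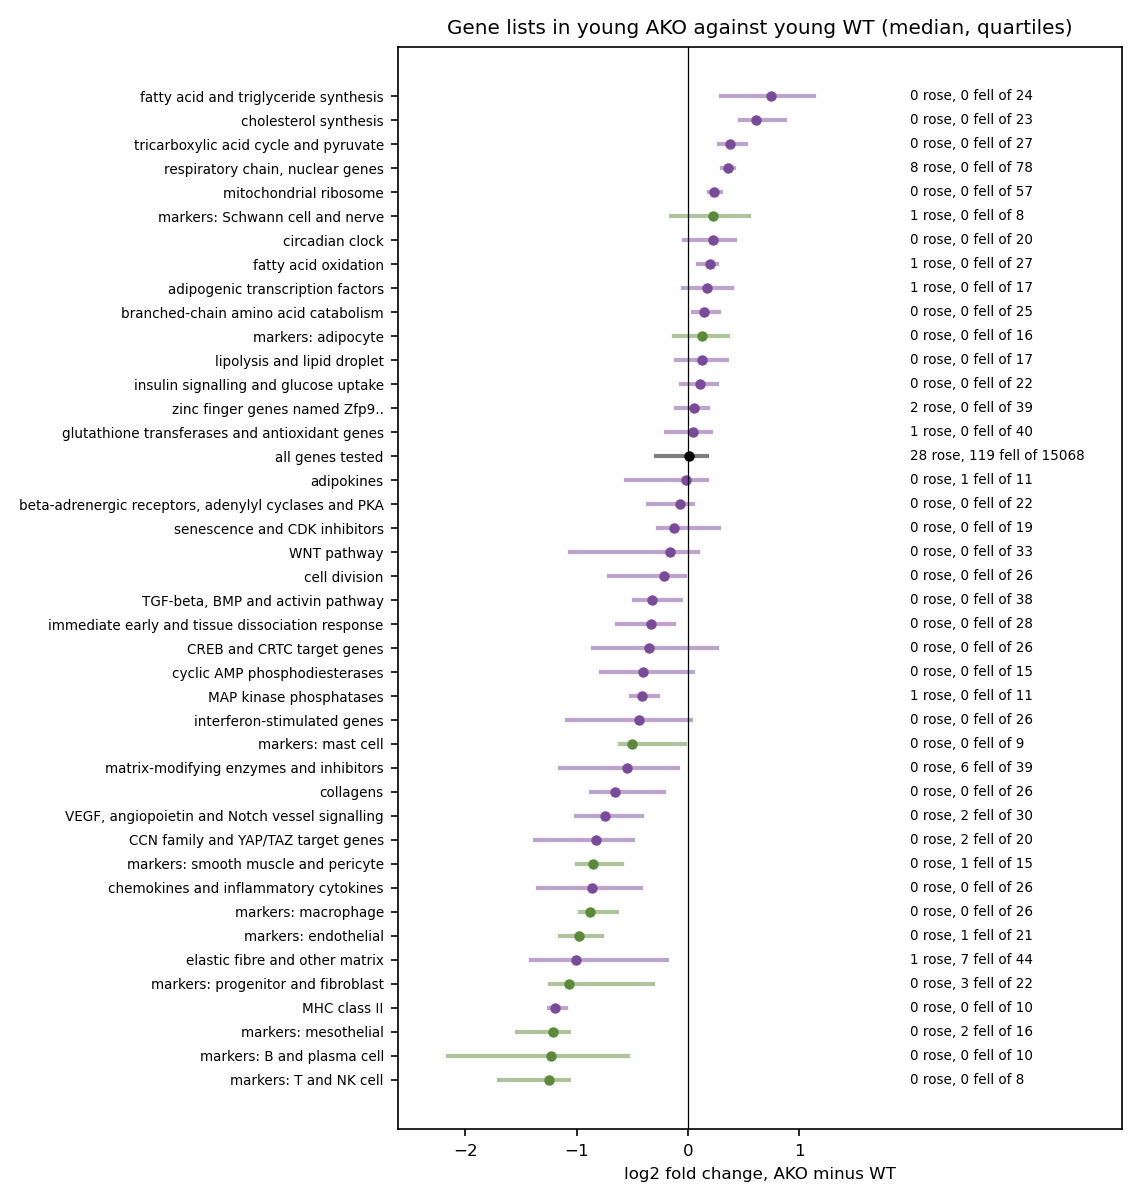
Median (point) and quartiles (line) of the log2 fold change of AKO minus WT over the tested members of each gene list with at least 8 of them, with the numbers called at the right (purple for pathways, green for cell type markers, black for all genes). Fatty acid synthesis has the highest median, 0.75, and T and NK cell markers the lowest, -1.25 (-0.79 without AKO replicate 2), against 0.01 for all genes.

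Called genes were spread over the genome. They lay in 103 of 274 bins of 10 Mb, 3 bins held 4 and none held more. At least 3 were called in 12 bins, some of them with few genes tested. On chromosome 5, 60 to 70 Mb had 3 of 33 called. On chromosome 9, 70 to 80 Mb, which holds Gsta4, had 3 of 60, and 80 to 90 Mb, which holds Zfp949, had 3 of 38. Chromosomes 1, 8 and 11 had 4 rises each, the most of any. Chromosome 1 and chromosome 11 also had 11 falls each. The share of tested genes called ran from 0% on chromosome Y to 1.72% on chromosome 1, against 0.976% over all.

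The 18-month libraries share no sample with the young ones, though both ages were fitted together. Of the 28 genes that rose at 3 months, 25 were above 0 at 18 months and 8 were called higher there. Of the 119 that fell, 117 were below 0 and 56 were called lower. Over all genes tested 65.3% had fold changes of the same sign at both ages, and 0.796% were called higher and 5.16% lower at 18 months. The falls with another sign at 18 months were Cyr61 (0.18) and Vasn (0.69). The rises with another sign were Mrpl54 (-0.16), Senp3 (-0.20) and Ly6h (-0.02). The difference between ages was not called for Cyr61 (2.13 ± 0.36, adjusted p = 0.239) or Vasn (1.63 ± 0.26, adjusted p = 0.239). It was called for 1 gene of 15068 (0.00664%), Zfp973, and 1409 genes (9.35%) had an unadjusted p under 0.05.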

How the data were processed

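Poly-A RNA of 12 libraries was sequenced from TruSeq mRNA libraries, per the labels' protocols. The submitters' processing notes name HISAT2 2.1.0, HISAT, Bowtie2 and StringTie 1.3.4d with mouse build mm10, without roles or order. The authors deposited a table of 36779 transcripts, in which every library has 2 columns. One is the deposited estimated count, a whole number without depth scaling; the other is the deposited FPKM, used here for levels per length and as an alternative. Columns were matched to samples by age, genotype and replicate number.

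Counts were summed per gene symbol (24541), scaled by TMM and filtered by filterByExpr (15068 genes), and tested with the edgeR 4.0.16 quasi-likelihood F-test (R 4.3.3) with the 4 groups as coefficients over all 12 libraries; p-values are two-sided, adjusted by Benjamini-Hochberg. The common biological coefficient of variation was 24.7%. Lists, 45 in number, are described by counts called and medians, with no set test. Alternatives were DESeq2 size factors, the DESeq2 1.42.0 Wald test, limma-voom and limma-trend (limma 3.58.1), other filters, only the young libraries, a replicate block and each library left out in turn. The groups and gene lists were chosen with earlier results of these data known. The rule for named genes took Crtc1, Crtc2 and Crtc3, among called genes the top 15 by fold in each direction with a name, a mean of at least 1 CPM and groups that did not overlap, members of each list (those called, and with fewer than 3 called the 3 with the smallest p), called genes on the chromosomes with most rises (1, 8 and 11, which tied), and genes with 0 reads in one young group and at least 10 in each library of the other. Abcg2, Acaca, Adipoq, Atf3, Bvht, Cldn5, Ctgf, Dynlt1a, Dynlt1b, Dynlt1c, Fam124a, Fasn, Fos, Fpr2, Gbp9, Gpr176, Grin1os, Hhex, Ifitm3, Irf1, Kng1, Lpl, Lum, Mafk, Mir145a, Morf4l1, Morf4l1-ps1, Morf4l1b, Mpc1, Mrpl54, Nr4a1, Nr4a2, Nr4a3, Pecam1, Phf11d, Plk2, Rfc4, Rps27, Rps27rt, Slc38a5, Tmcc3, Tmsb4x, Vash1, Vasn and Vegfa were chosen after their values were seen. Tables were handled in Python 3.11.15 (pandas 2.3.3), and matplotlib 3.10.9 drew the figures.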

Additional observations from a re-analysis of the deposited data

Results flagged for a closer look

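Zfp973 was the gene whose genotype effect differed between the ages by the edgeR test of the difference itself: the log2 fold change at 18 months minus that at 3 months was -10.01 ± 0.79 (adjusted p = 0.00864). The size of this value depends on the prior count, because the 3 young WT libraries held 0 reads. Young AKO gave 3.49, 2.94 and 2.995 CPM, while at 18 months WT gave 1.57, 2.91 and 1.35 and AKO 2.68, 2.16 and 3.01. Its copy Zfp965 gave 3.37, 2.82 and 2.83 CPM in young AKO, 0, 2.804 and 0 in old WT and 2.54, 0 and 2.93 in old AKO. Groups of 3 libraries are too small for a test of single outlying samples.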

How the results depend on the processing

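The number of genes called depended on the test and on single libraries, and fold changes less so. In place of 147 (edgeR), 1294 genes were called by the DESeq2 Wald test (385 higher and 909 lower), 9 by limma-voom, 17 by limma-trend on log2(FPKM + 1) (5 higher and 12 lower), 54 in a fit that blocked on replicate number and 4 when old libraries were left out of the fit. Leaving out 1 library gave 5 to 464, and leaving out young WT replicate 1 and old WT replicate 3, which was chosen after seeing the data, gave 856. Leaving out young AKO replicate 2 turned the balance, to 112 higher against 85 lower. Of the 147 genes 147 were also called by DESeq2, 9 by limma-voom and 1 with the 6 young libraries alone. The block changes degrees of freedom, and the replicate numbers share only a number: deviations of same-numbered young libraries had correlations of 0.02, -0.03 and 0.04. Calls for the difference between ages, 1 with edgeR, were 60 with DESeq2, 0 with limma-voom, 0 with limma-trend on log2(FPKM + 1), 2 with log2(FPKM + 0.1), 0 with the replicate block, 1 to 4 with 1 library left out and 2 with both libraries left out. Crtc2 kept its direction in all alternatives, with 1.73 to 2.12 when 1 library was left out, and lost its call with the 6 young libraries alone (1.90, adjusted p = 0.120). Signs turned for genes near 0 that were not called. Adipoq, at -0.01, was 0.0147 with limma-voom, 0.0140 with the replicate block, 0.26 with both libraries left out and -0.21 to 0.27 with 1 library left out. Crtc1, at 0.02, was -0.0177 with the stricter filter, -0.0508 with limma-trend on log2(FPKM + 1), -0.0641 with log2(FPKM + 0.1), -0.0437 with both libraries left out and -0.0379 to 0.15 with 1 library left out. Crtc3, at -0.06, was -0.14 to 0.00406 with 1 library left out. List medians were within 1 SD of the libraries in 907 of 990 comparisons with alternatives, and signs changed for 6 of 45 lists: adipokines, antioxidant genes, zinc finger genes, senescence genes, neutrophil markers, and epididymis and testis markers. On simulated data of 15068 genes, each drawn on its own, the test found 19.4% of 1.5-fold, 70.1% of 2-fold and 93.9% of 4-fold changes. It made 9 false calls among the genes left unchanged. A change of 1.5-fold was thus found in the minority of cases. Changed genes were drawn from those with a mean of at least 1 CPM, so these shares do not cover genes below that level.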
